A study of Mus musculus with 2 samples.

Results

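The Rab GTPases of red pulp macrophages were examined as a family. Members were all genes whose RefSeq symbol has the form Rab plus a number and letter, reached through the accession of each array probe. RefSeq lists 59 such mouse genes, and 57 of them had 80 usable probes among 20642 named genes on the array. Of the 57, 48 were measured, meaning that either array had the gene's brightest probe well above background, against 15827 of all genes. Rab genes were sorted by textbook role into early endosome (8 genes), late endosome and lysosome (11), recycling (9), secretory traffic through the ER and Golgi (12), secretory traffic to the cell surface by exocytosis (11), and others (6). Membership of the family rests on the symbol alone and used no measured value.

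The cells came from SIRPα-KO mice, which carry a knockout of the CD47 receptor SIRPα, a brake on phagocytosis, and from WT mice. The labels name neither allele, strain, age nor sex. Macrophages of the spleen were sorted as F4/80+ CD11b low cells, cells of 5 mice were mixed per genotype, globin transcripts were depleted, and each pool was hybridised to 1 one-colour array. No test across samples was therefore possible, and precision is limited by having a single array per genotype.

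Rab proteins are small GTPases that act as molecular switches on membranes. In the GTP-bound state, set by an exchange factor, each Rab recruits effectors that move, tether or fuse the vesicles of 1 compartment, and a GTPase-activating protein turns it off again. Red pulp macrophages engulf aged red blood cells, and the phagosome that holds such a cell matures as an endosome does: Rab5 proteins mark its early stage, Rab7 replaces them, and fusion with lysosomes follows, while recycling Rabs return membrane and receptors to the surface.

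Levels are given as the processed signal of the probe, a brightness in arbitrary units after the scanner software subtracted the background. Differences are on the log2 scale, taken as SIRPα-KO-labelled minus WT, after each array was scaled to its own 75th percentile. What follows ± is the signal error that the scanner software estimates, carried over from both arrays. It covers the spot and neither animals nor pools. A gene was called apart when the arrays differed at least 2-fold, that is by 1 or more on the log2 scale. Sirpa, the targeted gene, gave a signal of 1006 on the SIRPα-KO-labelled array and 795 on the WT array. The difference was 0.51 ± 0.20 at its only probe, so no loss of Sirpa signal was seen with the SIRPα-KO label. The labels and headers do not say how the gene was altered or where the probe lies relative to the change. Whether this probe should lose its signal is therefore not known, and every direction below follows the labels. The headers give the 2 arrays the same scan. Of all probes, 65.3% were well above background on the SIRPα-KO-labelled array and 71.5% on the WT array. Of 14 red pulp macrophage markers with a probe, 10 were well above background on the SIRPα-KO-labelled array and 12 on the WT array. The brightest were the F4/80 gene Adgre1, with a signal of 10406 on the SIRPα-KO-labelled array and 6830 on the WT array, and the growth factor receptor gene Csf1r, with 6697 and 6601. Hmox1, C1qb and C1qc lay above the 75th percentile of both arrays, and Spic, Vcam1, Cd163, Treml4, C1qa and Axl below it. Mertk and Itgad of that list were not well above background on either array. Some markers of other cells were bright too, such as the neutrophil gene Elane at 39299 and 45722 in the same order, and the platelet gene Pf4 at 12448 and 12236. The other members of these 2 lists were far dimmer. In scaled signal the neutrophil list summed to 442 on the SIRPα-KO-labelled array and 459 on the WT array. Without Elane it summed to 1.73 and 2.37 in the same order. The platelet list summed to 148 and 133, and to 8.89 and 11.2 without Pf4.

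Most Rab transcripts differed little between the arrays. Of 48 measured Rab genes, 1 was at least 2-fold higher with the SIRPα-KO label, Rab7b (2.08%), against 3.10% of all genes measured. At least 2-fold lower were 3 of 48, Rab39, Rab5b and Rab23 (6.25%), against 5.50% of all genes. The probes of Rab5b disagreed in direction, and with its second brightest probe 2 Rab genes were lower (4.17%). The share of Rab genes apart in either direction, 8.33%, stood beside 8.60% of all genes, and was 6.25% with the second Rab5b probe. The median difference over the 48 genes was -0.05, against -0.09 over all genes. Below 0 lay 26 Rab genes (54.2%, against 58.1% of all genes measured), and 22 lay above. The quartiles of the differences were -0.30 and 0.23 for Rab genes, against -0.39 and 0.26 for all genes. Differences over 2 times the signal error were found for 7 Rab genes upward (14.6%, against 14.3% of all genes) and for 6 downward (12.5%, against 17.8%). In pooled cells, fewer cells of a type and less RNA per cell cannot be told apart.

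**Figure D1:**
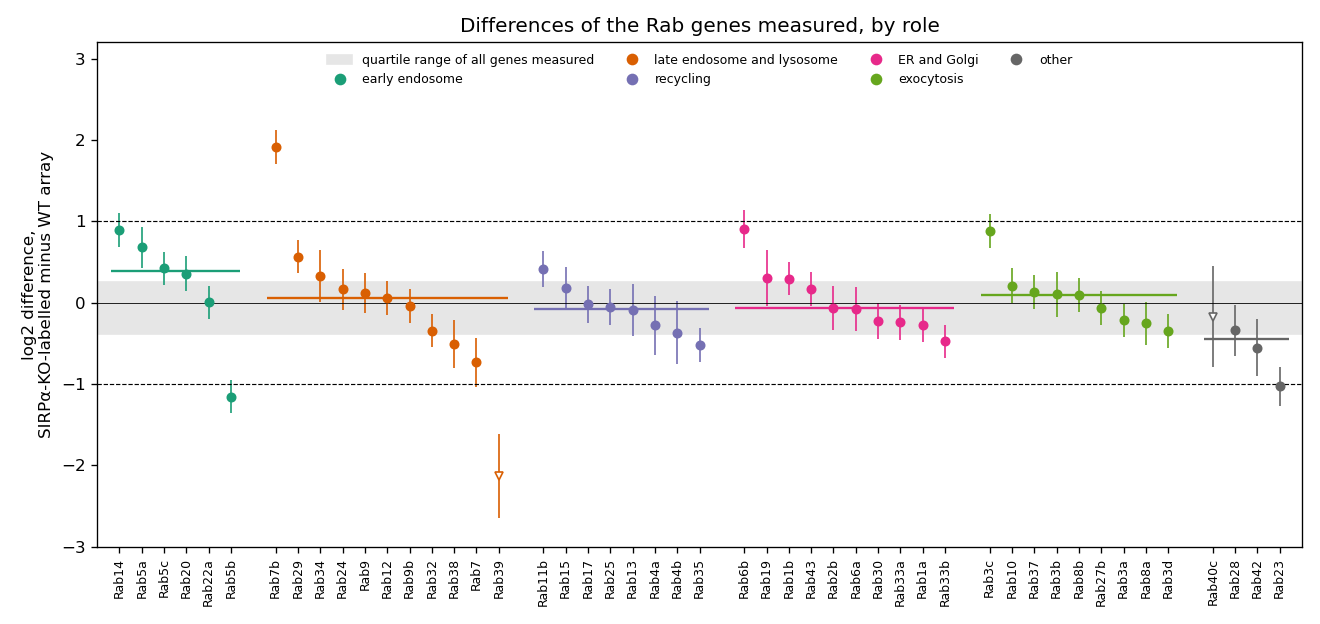
Log2 difference (vertical axis, SIRPα-KO-labelled array minus WT array) of the 48 measured Rab genes, grouped by role. Points are genes, whiskers the signal error, open triangles genes not well above background on the SIRPα-KO-labelled array, horizontal bars group medians, and the grey band the quartile range of all 15827 genes measured. Rab7b lies above the upper dashed 2-fold line, and Rab39, Rab5b and Rab23 below the lower one.

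Promoter sequence is shown for the genes counted as lower, so that the letters upstream of these Rabs can be read beside their values. Each is the stretch of 250 bases before the first RefSeq start listed for the gene, 5′ to 3′ on the strand of the gene, from RefSeq, assembly GRCm38.p6, with capitals at every match to the motifs searched. These were CACGTG (the E-box that lysosomal gene regulators of the TFEB family bind), GGGCGG (the GC box), TGACGTCA (the cAMP response element), TATAAA, and the core of the interferon-stimulated response element, GAAA and again GAAA after 2 free bases, on both strands. Rab39 lies on the minus strand at chr9:53706233-53706482, Rab23 on the plus strand at chr1:33719646-33719895, with a further start listed, and Rab5b on the minus strand at chr10:128696269-128696518.
Rab39: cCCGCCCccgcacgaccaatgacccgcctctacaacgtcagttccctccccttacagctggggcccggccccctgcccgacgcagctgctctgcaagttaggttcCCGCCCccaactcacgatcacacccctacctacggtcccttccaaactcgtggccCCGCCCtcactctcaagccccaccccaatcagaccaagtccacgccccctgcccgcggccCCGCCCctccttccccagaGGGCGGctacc
Rab23: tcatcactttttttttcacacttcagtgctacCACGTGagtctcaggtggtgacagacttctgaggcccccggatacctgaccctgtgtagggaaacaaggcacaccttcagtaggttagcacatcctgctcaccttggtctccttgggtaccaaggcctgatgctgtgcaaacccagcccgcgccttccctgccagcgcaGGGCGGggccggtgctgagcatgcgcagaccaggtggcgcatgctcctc
Rab5b: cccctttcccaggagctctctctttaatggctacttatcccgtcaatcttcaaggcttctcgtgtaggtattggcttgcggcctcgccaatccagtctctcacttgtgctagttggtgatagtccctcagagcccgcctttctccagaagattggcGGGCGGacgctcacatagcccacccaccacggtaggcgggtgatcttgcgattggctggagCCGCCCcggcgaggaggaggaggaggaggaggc
Rab39 holds 5 GC boxes in 68.8% G and C, Rab5b holds 2, and Rab23 holds 1 beside an E-box.

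The table held no entry for Rab7b. Over the 48 of 57 Rab genes with a promoter in it, 33 (68.8%) held a GC box within 250 bases, against 42.7% of 17492 protein-coding genes and 32.9% of all 27025 genes listed. An E-box was found in 4 (8.33%), Rab5a, Rab20, Rab21 and Rab23, against 6.64% of protein-coding and 6.05% of all genes. The cAMP response element stood before Rab5a and Rab25 (4.17%, against 2.01% and 1.62%). TATAAA was found in 4 (8.33%, against 12.4% of protein-coding genes) and the interferon-stimulated core before Rab19 alone (2.08%, against 3.02% and 3.04%). A match is a description of letters and no evidence that a factor binds.

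The brightest Rab probes belonged to secretory and endosomal Rabs alike. Brightness depends on the probe as well as on the transcript, so this order describes signals and ranks no transcripts. In order of mean level they were Rab3c, Rab5c, Rab3a, Rab33b, Rab12, Rab3d, Rab5b, Rab43, Rab22a and Rab32. Rab5c, which drives fusion of early endosomes, had a signal of 2283 on the SIRPα-KO-labelled array and 1913 on the WT array. Rab12, which in mouse cells sends the transferrin receptor from recycling endosomes to lysosomes, had 763 and 824 in the same order, a difference of 0.06 ± 0.20. In all, 13 Rab genes lay above the 75th percentile of both arrays, and 46 were well above background on both.

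**Figure D2:**
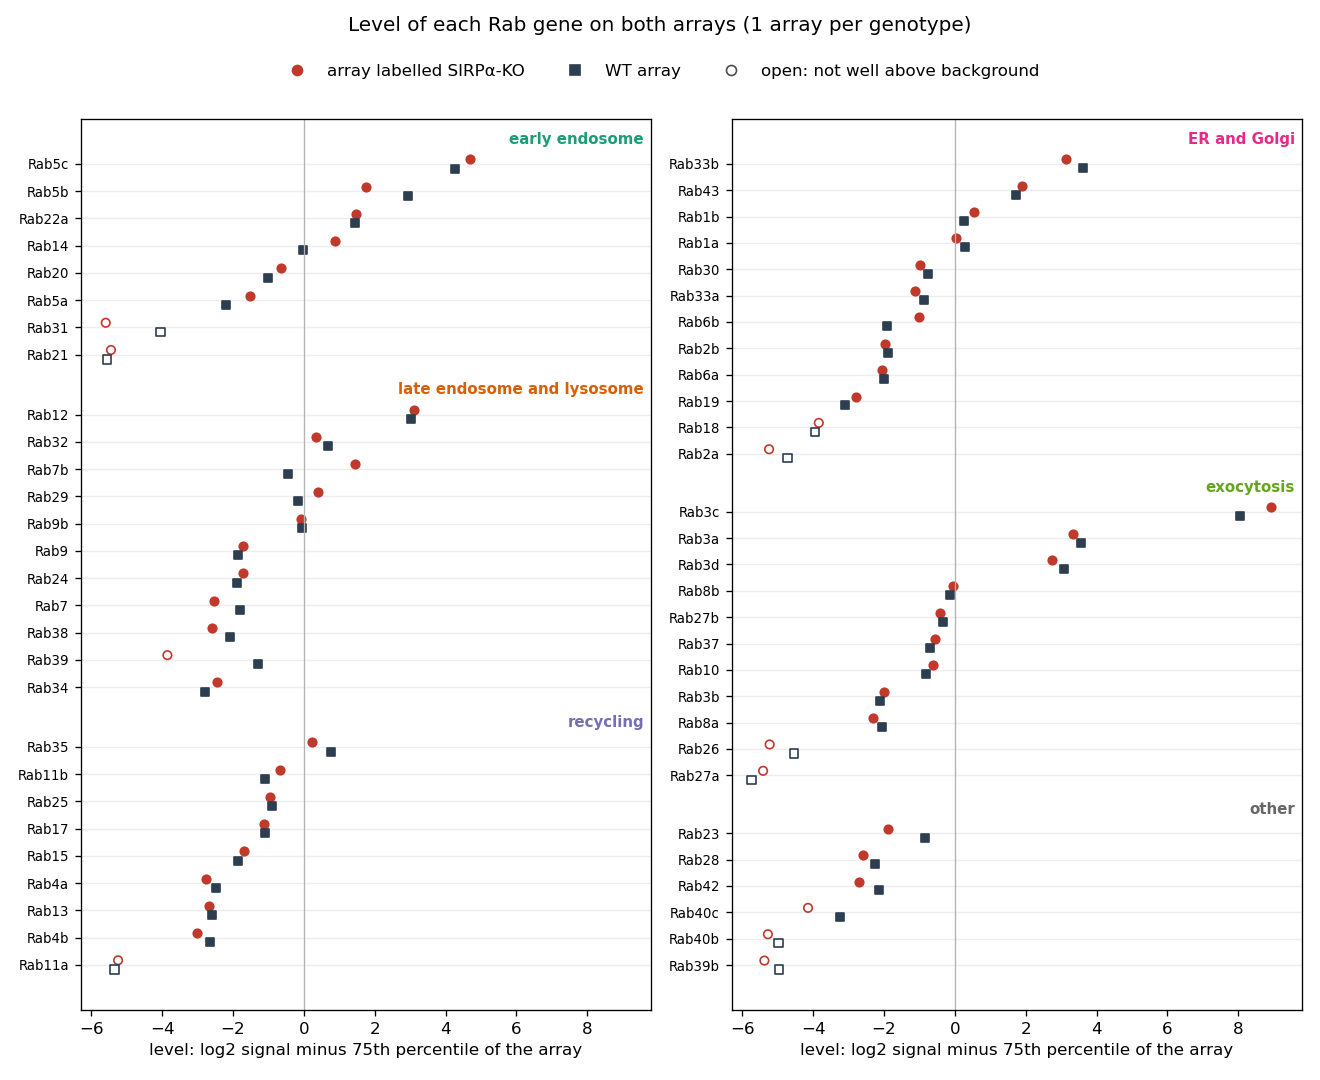
Level of all 57 Rab genes with a usable probe, as log2 signal relative to the array's 75th percentile (horizontal axis), grouped by role. Red circles are the SIRPα-KO-labelled array, dark squares the WT array, and open symbols values not well above background. Rab3c stands at 8.94 on the SIRPα-KO-labelled array and 8.06 on the WT array, and 9 genes have open symbols on both.

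The 9 genes not well above background on either array were Rab2a, Rab11a, Rab18, Rab21, Rab26, Rab27a, Rab31, Rab39b and Rab40b. Their signals ran between 1.85 and 6.23 on the SIRPα-KO-labelled array and between 1.87 and 6.52 on the WT array, while the dimmest probe well above background had 9.09 and 7.92 in the same order. Each was read by a single probe. Among them are Rab11a, the Rab of slow recycling, Rab21, which carries integrins through early endosomes, and Rab27a, which docks secretory granules. For these genes no difference is given. Rab36 and Rab44 had no usable probe and were not analysed here.

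Among early endosome Rabs the median difference was 0.39 over 6 measured genes, of which 5 lay above 0 and 1 was at least 2-fold lower. Over all genes measured the median was -0.09, and 58.1% lay below 0. The early endosome median stayed above 0 under every scaling tried, the lowest being 0.22 without scaling, while Rab22a changed sign with the scaling. Rab14, which links early endosomes and the Golgi, had a signal of 163 on the SIRPα-KO-labelled array and 98.7 on the WT array, 1.85-fold higher (0.89 ± 0.21) and short of the 2-fold limit. Rab5a had 31.4 and 22.0 in the same order, a difference of 0.68 ± 0.25, and Rab5c differed by 0.42 ± 0.20. These 3 genes lay above 0 by more than 2 times their errors at their brightest probes. The other Rab5a probe, spotted 10 times, differed by 0.14 ± 0.30, within its error. Rab20, which associates with phagosomes of macrophages, had 57.2 on the SIRPα-KO-labelled array and 50.2 on the WT array (0.36 ± 0.22), less than 2 errors apart. Rab22a, a Rab of early endosomes and of recycling tubules, had 245 and 275 in the same order, and after scaling the arrays were level at 0.00 ± 0.20.

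Rab5b, the remaining member of the Rab5 trio, gave a different answer at each probe. Its brightest probe by the mean of both arrays had a signal of 304 on the SIRPα-KO-labelled array and 762 on the WT array, 2.23-fold lower (-1.16 ± 0.20), and this value made it count as lower. The next brightest had 309 and 218 in the same order, a difference of 0.67 ± 0.20 in the other direction. The 2 dimmer probes differed by -0.36 ± 0.22 and -0.12 ± 0.29. All 4 probes carry the same transcript accession, so no direction can be given for Rab5b as a gene. With the second probe in place of the first, the early endosome median was 0.55.

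The late endosome and lysosome Rabs held both the highest and the lowest difference among the 48 measured members. Their median was 0.06 over 11 measured genes, with 6 above 0 and 5 below, and the median was -0.11 without scaling. Rab7b, a Rab of late endosomes and the Golgi that in mouse macrophages steers Toll-like receptors to degradation, had a signal of 244 on the SIRPα-KO-labelled array and 73.0 on the WT array. It was 3.77-fold higher (1.91 ± 0.21), read at 1 spot per array. Between 1.32 and 1.96 over 12 ways of processing, it was the only Rab gene at least 2-fold higher in 11 of them, and Rab3c joined it after cyclic loess. Rab7b had 1 probe, well above background on both arrays, so the probe choices and filters among the 12 could not change its value.

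Rab39, known in human cells as RAB39A, a partner of caspase-1 in the secretion of interleukin-1, went the other way. Its signal of 6.18 on the SIRPα-KO-labelled array was not well above background, against 41.1 on the WT array, so that it was at least 4.37-fold lower (log2 difference -2.13, signal error 0.52). The bound depends on the floor of that array, and was -2.01 with outlier spots kept. Rab39 too was read at 1 spot per array. After normexp background correction with an offset of 50, which shrinks dim signals, the difference was -0.49 and no longer past the limit. Rab39 was measured only through the WT array, and asking for both arrays above background leaves it out. Rab7, the Rab that replaces Rab5 on maturing phagosomes and brings in lysosomes, had 15.2 on the SIRPα-KO-labelled array and 28.5 on the WT array, 1.66-fold lower (-0.73 ± 0.30), over 2 errors but under 2-fold. Both Rab7 signals were dim, and after normexp background correction the difference was -0.15.

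Marker lists were read beside these genes, each as a count of measured members and a summed scaled signal. Over all genes measured, 58.1% lay below 0, with a median of -0.09, so a majority below 0 is usual here. Of 12 measured red pulp macrophage markers, 8 lay below 0 and 4 above, with a median difference of -0.18. Their list summed to 203 on the SIRPα-KO-labelled array and 145 on the WT array, and to 86.4 and 76.7 without Adgre1, which moved the sum most. Of 7 conventional dendritic cell markers, 5 lay below 0, with a median of -0.41. The sums were 7.37 on the SIRPα-KO-labelled array and 14.3 on the WT array, and 1.59 and 2.20 without Flt3, with 5 and 7 markers well above background. All 4 measured monocyte markers lay below 0, with a median of -0.27, sums of 107 on the SIRPα-KO-labelled array and 124 on the WT array, and Ccr2 not well above background on either. B cell markers lay on both sides of 0, 4 of 7 below it, with a median of -0.06. Their sums of 12.3 on the SIRPα-KO-labelled array and 24.5 on the WT array became 8.67 and 9.04 without Cr2. Of 7 plasma cell markers, 5 lay below 0 (median -0.36) and 2 were at least 2-fold lower. All 6 measured neutrophil markers lay below 0 (median -0.20). Platelet markers lay 4 above and 4 below 0, with 1 at least 2-fold higher. Medians of the T cell, NK cell, mast cell and eosinophil, erythroid, and endothelial and stromal lists lay between -0.20 and -0.03. Whether the makeup of the pools has a part in the Rab7b and Rab39 values was not tested.

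Rabs of lysosome-related organelles and of autophagy showed no call. Rab32, which serves such organelles, had a signal of 113 on the SIRPα-KO-labelled array and 161 on the WT array (-0.35 ± 0.21). Its relative Rab38 differed by -0.51 ± 0.29 at its brightest probe and by 0.20 ± 0.41 at the other. Rab29, which recruits the kinase LRRK2 to membranes, had 118 and 89.6 on the SIRPα-KO-labelled array and the WT array (0.57 ± 0.21), while its other probe, of like brightness at 92.8 and 104 in the same order, differed by 0.01 ± 0.21. Rab24, a Rab of autophagosomes, Rab34, which positions lysosomes, Rab9, which returns receptors from late endosomes to the Golgi, and its relative Rab9b differed by between -0.04 and 0.33.

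Recycling Rabs held no call. Their median was -0.07 over 8 measured genes, 6 of them below 0, where 58.1% of all genes measured also lay. The median was -0.24 without scaling and 0.00 after normexp background correction. Rab35, which returns cargo to the surface and acts in phagocytic cup formation, had a signal of 105 on the SIRPα-KO-labelled array and 169 on the WT array (-0.52 ± 0.21), the only recycling Rab over 2 errors. Rab11b had 55.5 and 46.7 in the same order (0.42 ± 0.22). The fast-recycling Rabs Rab4a and Rab4b lay at -0.28 ± 0.36 and -0.37 ± 0.39, within their errors. Rab13, Rab15, Rab17 and Rab25, the last 2 best known from epithelia, lay between -0.09 and 0.18 at their brightest probes, and a second probe of Rab17 differed by -0.72 ± 0.26.

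Secretory Rabs, taken as the ER, Golgi and exocytosis sets together, had a median of -0.06 over 19 measured genes, 9 above 0 and 10 below, with no call. The median changed sign with the scaling, at 0.08 after quantile normalization and -0.23 without scaling. In the ER and Golgi set (median -0.07, 10 genes), Rab6b, a relative of the Golgi Rab Rab6a, was nearest to the limit, with a signal of 44.6 on the SIRPα-KO-labelled array and 26.8 on the WT array (0.91 ± 0.23). Rab33b, which acts in the Golgi and in autophagosome formation, had 784 and 1225 in the same order (-0.47 ± 0.20), and its dimmer probe differed by -0.23 ± 0.23. Rab6b and Rab33b were the only members of the set over 2 errors. For Rab33b this depended on the scaling, since it lay at -0.18 after quantile normalization. Rab1a and Rab1b, the switches of transport between ER and Golgi, lay at -0.27 ± 0.21 and 0.30 ± 0.21. Rab43, which acts at the Golgi, had a signal of 333 on each array before scaling (0.17 ± 0.20). Rab2b, Rab6a, Rab19, Rab30 and Rab33a lay between -0.24 and 0.30.

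In the exocytosis set (median 0.10, 9 genes), Rab3c stood out by brightness. It is known as a Rab of synaptic vesicles, and its brightest probe had a signal of 43678 on the SIRPα-KO-labelled array and 26648 on the WT array, 1.84-fold higher (0.88 ± 0.20). A second probe had 26518 and 15495 in the same order (0.94 ± 0.20), while the remaining one, of the same accession, had 2.14 and 1.87 and was not well above background. The probes of Rab3c thus agreed in direction at 2 of 3 and disagreed on whether there was signal at all. Rab3a, another synaptic Rab, and Rab3d, a Rab of secretory granules, differed by less than 2 errors. Rab3a had 898 on the SIRPα-KO-labelled array and 1172 on the WT array (-0.22 ± 0.20), and lay at 0.08 after quantile normalization. Rab3d had 596 and 853 in the same order (-0.35 ± 0.20), and lay at -0.06 after quantile normalization. A second Rab3d probe was much dimmer, at 21.8 and 24.9 in the same order (-0.02 ± 0.26). Rab8a, Rab8b, Rab10, Rab3b, Rab27b and the mast cell granule Rab Rab37 lay between -0.26 and 0.21.

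The other Rabs lay below 0, all 4 of those measured, with a median of -0.45. Of all genes measured, 58.1% lay below 0. Rab23, which restrains hedgehog signalling in the mouse embryo, had a signal of 24.3 on the SIRPα-KO-labelled array and 55.8 on the WT array, 2.04-fold lower (-1.03 ± 0.24), just past the limit. Its second probe was not well above background, and after normexp the difference was -0.40. Rab42 differed by -0.55 ± 0.35 and Rab28 by -0.34 ± 0.31, both under 2 errors. Rab40c was not well above background on the SIRPα-KO-labelled array, with 5.04 against 10.6 on the WT array, and -0.17 bounds its difference. On either side of the 2-fold limit therefore stood Rab23 at 2.04-fold lower inside it, and Rab6b, Rab14 and Rab3c at 1.87-fold, 1.85-fold and 1.84-fold higher outside it.

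Genes with several probes give a check that the single-spot members lack. Of the 48 measured genes, 15 had more than 1 measured probe and 33 had a single one, Rab7b, Rab39, Rab23, Rab14 and Rab6b among these. In 9 of the 15 all measured probes had the same sign, and in 5 the probes spanned over 0.5 on the log2 scale: Rab5b (1.83), Rab38 (0.72), Rab17 (0.70), Rab29 (0.56) and Rab5a (0.55). The second Rab5a probe was spotted 10 times, with a mean signal of 18.3 on the SIRPα-KO-labelled array and 18.8 on the WT array and spot SDs of 0.18 and 0.23 on the log2 scale, and differed by 0.14 ± 0.30. The dimmer probes of Rab9, at -0.10, Rab10, at -0.16, Rab27b, at 0.37, and Rab43, at -0.08, had the opposite sign to the brightest one, as did that of Rab38 and 1 of Rab5b. Rab4a and Rab15 gave the same sign at both probes. At Rab37, both probes gave 0.13.

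**Figure D3:**
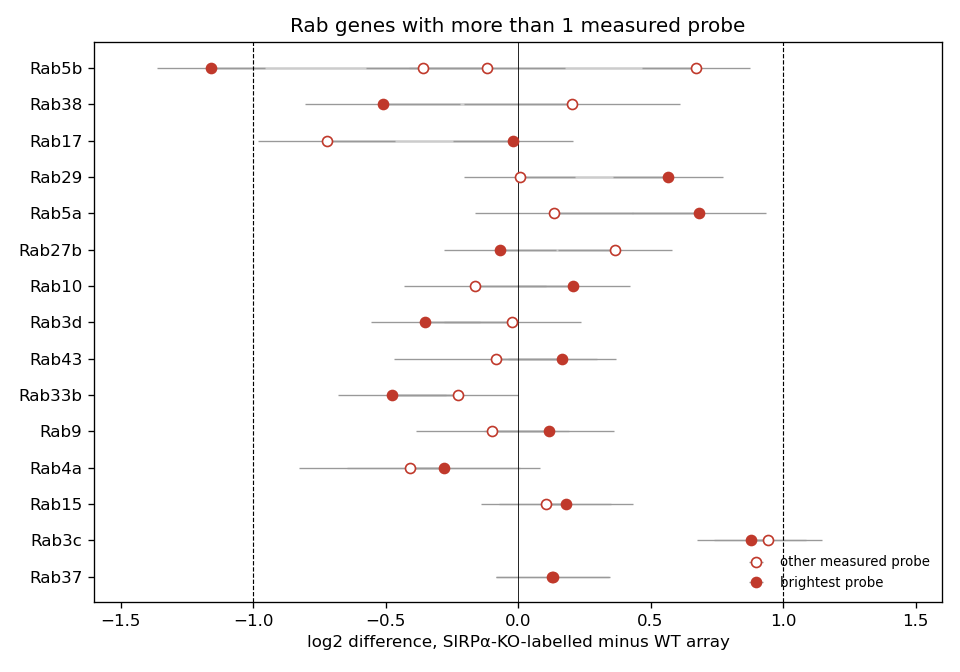
Log2 difference (horizontal axis, SIRPα-KO-labelled array minus WT array) at each measured probe of the 15 Rab genes with more than 1, sorted by the span between probes. Filled circles are the brightest probe, open circles the others, whiskers the signal error, and dashed lines the 2-fold limits. The 4 probes of Rab5b run from -1.16 to 0.67, and those of Rab3c lie side by side at 0.88 and 0.94.

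Close relatives were set against each other within the arrays, as 11 pairs measured at their brightest probes. In 3 pairs the differences were unequal by more than 2 errors. Rab7b exceeded Rab7 by 2.65 ± 0.36, and Rab6b exceeded Rab6a (-0.07) by 0.98 ± 0.36. Rab5b lay below Rab5c by 1.58 ± 0.29, a value that rests on the brightest Rab5b probe. The Rab1, Rab3a and Rab3d, Rab4, Rab8, Rab9, Rab32 and Rab38, Rab33, and Rab5a and Rab5c pairs were within 2 errors of each other.

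**Figure D4:**
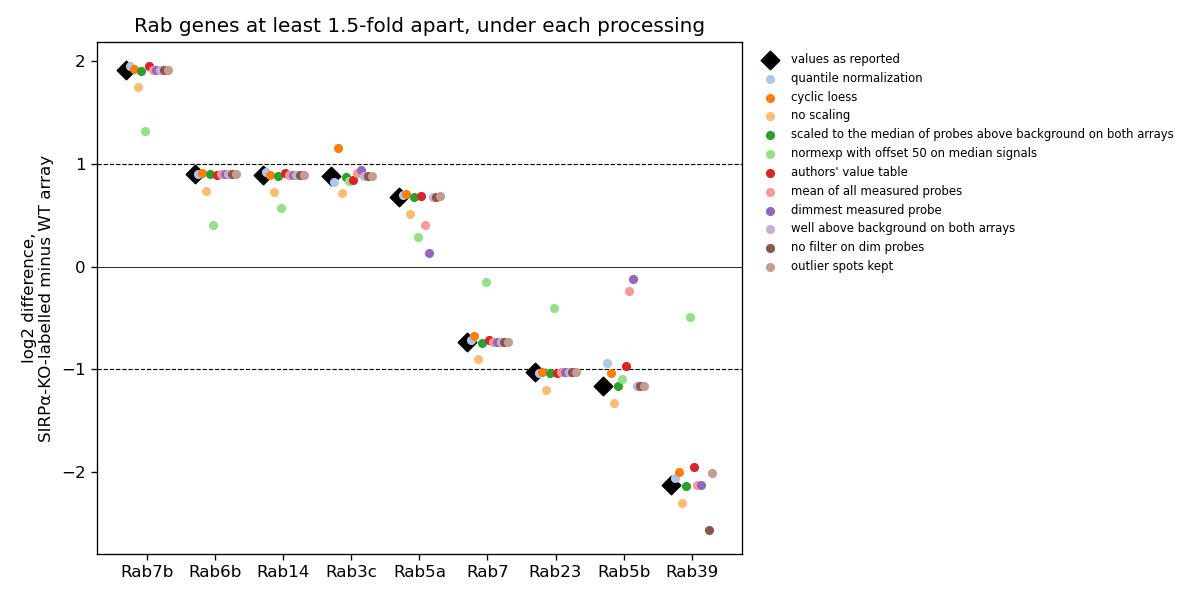
Log2 difference (vertical axis, SIRPα-KO-labelled array minus WT array) of the 9 Rab genes at least 1.5-fold apart, under 12 ways of processing. Black diamonds are the values as reported, coloured points the alternatives, and dashed lines the 2-fold limits. Rab7b stays above the upper line throughout, while normexp with an offset of 50 moves Rab23 to -0.40 and Rab39 to -0.49.

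Regulators and effectors of the Rabs were counted from lists drawn up by role. Of 81 measured partners, 3 were at least 2-fold higher, against 3.10% of all genes, and 0 at least 2-fold lower, against 5.50%. The median of the partners was 0.10, with 45 above 0 and 36 below. Over all genes measured the median was -0.09, and 58.1% lay below 0. Rab11fip5, an effector of Rab11 proteins in recycling, had a signal of 616 on the SIRPα-KO-labelled array and 280 on the WT array, 2.47-fold higher (1.31 ± 0.20). Rab3il1, an exchange factor of secretory Rabs, had 27.9 and 14.6 in the same order (1.11 ± 0.30). Tbc1d15, a GTPase-activating protein for Rab7, had 20.2 and 10.7 (1.08 ± 0.38), dim on both arrays.

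By role, partners of the late endosome had the highest median, 0.28 over 19 measured genes, of which 1 was at least 2-fold higher and 0 lower. The Rab7 effectors were not of 1 kind there. Plekhm1, which ties Rab7 to the HOPS tethering complex, lay at 0.93 ± 0.23. Its signal was 56.6 on the SIRPα-KO-labelled array and 33.4 on the WT array. Rubcn, a brake on late endosome maturation, lay at 0.76 ± 0.21. Vps39, a HOPS subunit, lay at -0.49 ± 0.20, and Osbpl1a of the same list at -0.46 ± 0.20. The HOPS subunits Vps41, Vps16 and Vps18 lay at 0.68 ± 0.34, 0.48 ± 0.20 and 0.28 ± 0.36, the last within its error. Vps11 was not well above background on the SIRPα-KO-labelled array, a difference of -0.18 or below. Vps33a was not well above background on either array. Tbc1d5, a further GTPase-activating protein for Rab7, was not well above background at 7.47 on the SIRPα-KO-labelled array, against 18.3 on the WT array, a difference of -0.96 or below. Rilp, which couples Rab7 to dynein, differed by 0.10. Medians were 0.13 for 15 early endosome partners, 0.02 for 15 recycling partners and 0.13 for 26 secretory partners.

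Genes that lipidate Rabs or hold them in the cytosol had a median of -0.14 over 6 measured members. Gdi2, which extracts GDP-bound Rabs from membranes, had a signal of 1377 on the SIRPα-KO-labelled array and 939 on the WT array (0.72). Rabggta, the alpha subunit of the enzyme that attaches geranylgeranyl groups to Rabs, differed by -0.15, and the beta subunit Rabggtb was not well above background on either array.

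**Figure D5:**
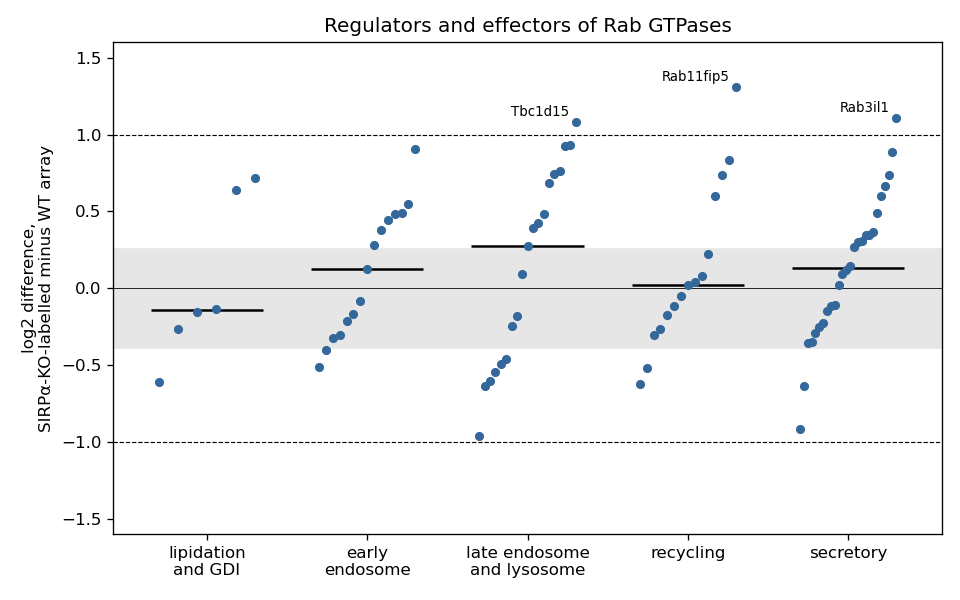
Log2 difference (vertical axis, SIRPα-KO-labelled array minus WT array) of the 81 measured regulators and effectors of Rab GTPases, by role. Points are genes, black bars medians, the grey band the quartile range of all genes measured, and dashed lines the 2-fold limits. Rab11fip5, Rab3il1 and Tbc1d15 lie above the upper line and no partner below the lower one.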

How the data were processed

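The deposited scanner tables give an intensity per spot, not log-transformed, from Agilent Feature Extraction 11.0.1.1 (design 026655, build mm9), per the file headers; its processed signal was used, with a column of the same files giving the background-subtracted signal. The authors' deposited value table is on a log2 scale with a column median of 4.56 on each array; its rank order followed the scanner signal (Spearman 1 on each array, over probes well above background), so scale and direction are settled, while how it was centred is not stated. Spots with an outlier flag on either array were left out (321 of 43020, 0 of them Rab spots), and 0 spots were saturated. The 75th percentiles were signals of 89.2 (labelled SIRPα-KO) and 100.2 (WT). Spots of a probe were averaged and a gene took its brightest probe. Where 1 array was not well above background, a value under the lowest well-above-background level there was raised to it, giving a bound on the fold ("at least"). This floor was -3.41 on the SIRPα-KO-labelled array and -3.66 on the WT array, relative to the 75th percentile on the log2 scale. It is the lowest average of log2 spot values, so it need not match the dimmest mean signal. Symbols came from RefSeq GRCm38.p6 through the accession, for 27206 of 39386 probes. Probes with 8 or more kept spots had median spot SDs of 0.14 and 0.15. Members, role lists and the naming rule (the 10 brightest, those at least 2-fold apart, the extremes and brightest of each role, those with several probes, phagosome Rabs, and partners at least 2-fold apart, with further members given in groups) were chosen with earlier results of these data known. The alternatives were other scalings (limma 3.58.1 in R 4.3.3), background correction, probe choices, filters and fold limits. The gene step was tested on simulated data. Python 3.11.15 was used.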

Additional observations from a re-analysis of the deposited data

How the results depend on the processing

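No paired analysis was possible because each genotype has 1 array, so no replicate could be left out either. The count of Rab genes at least 2-fold higher, 1, was 2 with cyclic loess and 5 at 1.5-fold. Of lower Rab genes, 3 in all, normexp left 1, run on median signals (chosen after the data were seen, since the files hold no mean signal), and a 3-fold limit left 1. The count was 2 with quantile scaling, the authors' values, the mean of probes, the dimmest probe and the second Rab5b probe, none of which kept Rab5b. It was 2 also with both arrays above background, which leaves out Rab39, and 4 with no filter, which adds Rab31. The 3 partner genes apart were 6 with quantile scaling, 5 with the authors' values, 6 at the dimmest probe, 6 with no filter and 1 with normexp. Rab7b, Rab39 and Rab23 kept their sign in every setting that gave them a value, and Rab5b did so except at its second probe. Rab7b, Rab39 and Rab23 each had 1 measured probe, so the choices among probes could not change their values. The normexp offset of 50 shrinks dim genes by construction. For the other shifts the cause was not tested. Over all genes, the limit was passed by 490 upward and 871 downward. Higher genes were thus 36.0% of these, while the share was 47.9% by quantile scaling, 46.0% by loess, 47.1% by the authors' values and 20.3% on unscaled signals, and normexp gave 102 higher and 578 lower. On unscaled signals the median over all genes lay at -0.26 in place of -0.09. The Rab median minus that of all genes was 0.046 as reported, but -0.0081 by quantile scaling, -0.0020 by loess, 0.0016 by the authors' values and 0.0045 by normexp. Signals under 9.09 on the SIRPα-KO-labelled array and 7.92 on the WT array were not well above background, which leaves 9 Rab genes with no difference.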
